A study of Mus musculus with 18 samples.

Results

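The 35 genes described here are those whose names place them in the transient receptor potential (TRP), P2X, acid-sensing (ASIC), HCN and PIEZO families. They were taken by name from 18444 gene names that have a row of their own in all 3 deposited tables, and where a name had several rows the row with the highest mean level was used. Of the 35 genes, 34 encode ion channels. The remaining one, Trpc4ap, encodes a protein that binds TRPC4 and is not a channel. The rule reads the gene name and, among rows of a name, the mean level.

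RNAseq was performed on dorsal spinal cord tissue of segments L3–5 from C57BL/6 mice (C57BL/6N in the study's methods) aged 3 months, 24 h after the hindpaw was injected with CFA (complete Freund's adjuvant, which inflames the paw) or with saline. All mice had earlier received a recombinant adeno-associated virus (rAAV) in the spinal cord, so there was no group without a virus. The virus carried LacZ (the control, a bacterial enzyme), HDAC4 wt (the unmutated histone deacetylase 4) or HDAC4 3SA (a mutant that stays in the nucleus), each with a Flag tag. The 6 groups (LacZ saline, LacZ CFA, HDAC4 wt saline, HDAC4 wt CFA, HDAC4 3SA saline and HDAC4 3SA CFA) held 3 mice each, 18 in all. The promoter of the 3 constructs is not given in the sources used here, and the tissue holds transduced and other cells together. Hdac4 itself stood at 7.41 and 7.72 FPKM (saline and CFA) with LacZ, 10.1 and 10.8 with HDAC4 wt, and 8.86 and 8.81 with HDAC4 3SA.

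Levels are given in FPKM, the number of sequenced fragments per kilobase of a gene's exons, divided by the size of the library, with 1 value for a group of 3 mice. No spread between mice and no depth per library can be read from them, so every value below is a group value without an error, no difference was tested, and no p-value is given. Changes are log2 ratios of CFA over saline within a vector, with 0.1 FPKM added to both values. A ratio beyond 0.5 in either direction is called past the fold threshold. Each vector was normalized in a run of its own, so levels of different vectors are set side by side only as a description.

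These channels turn chemical, thermal, acidic and mechanical stimuli, or the voltage of the membrane itself, into cation currents. In primary sensory neurons of the dorsal root ganglia, TRPV1 responds to heat and capsaicin, TRPA1 to irritants, TRPM8 to cold, P2X3 to ATP, ASIC3 to acid and PIEZO2 to touch. Their cell bodies lie outside the spinal cord. Cells of the cord have members of the same families: HCN channels carry the pacemaker current of neurons, TRPC channels open downstream of phospholipase C, and microglia, the immune cells of the cord, use P2X4 and P2X7 to sense ATP.

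Among the 34 channels, 23 had a mean of at least 1 FPKM over the 6 groups, 5 lay between 0.5 and 1 FPKM, and 6 lay below 0.5 FPKM. By family, this level of 1 FPKM was reached by 5 of 7 P2X, 4 of 6 TRPM, 2 of 5 TRPV, 2 of 3 ASIC and 1 of 2 PIEZO genes, and by Trpa1 not at all. Several channels known from sensory neurons (Trpv1, Asic3, P2rx3, Piezo2) were at the low end of this order, and Hcn2, Trpm7, Trpm2 and P2rx4 were at its high end.

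**Figure D1:**
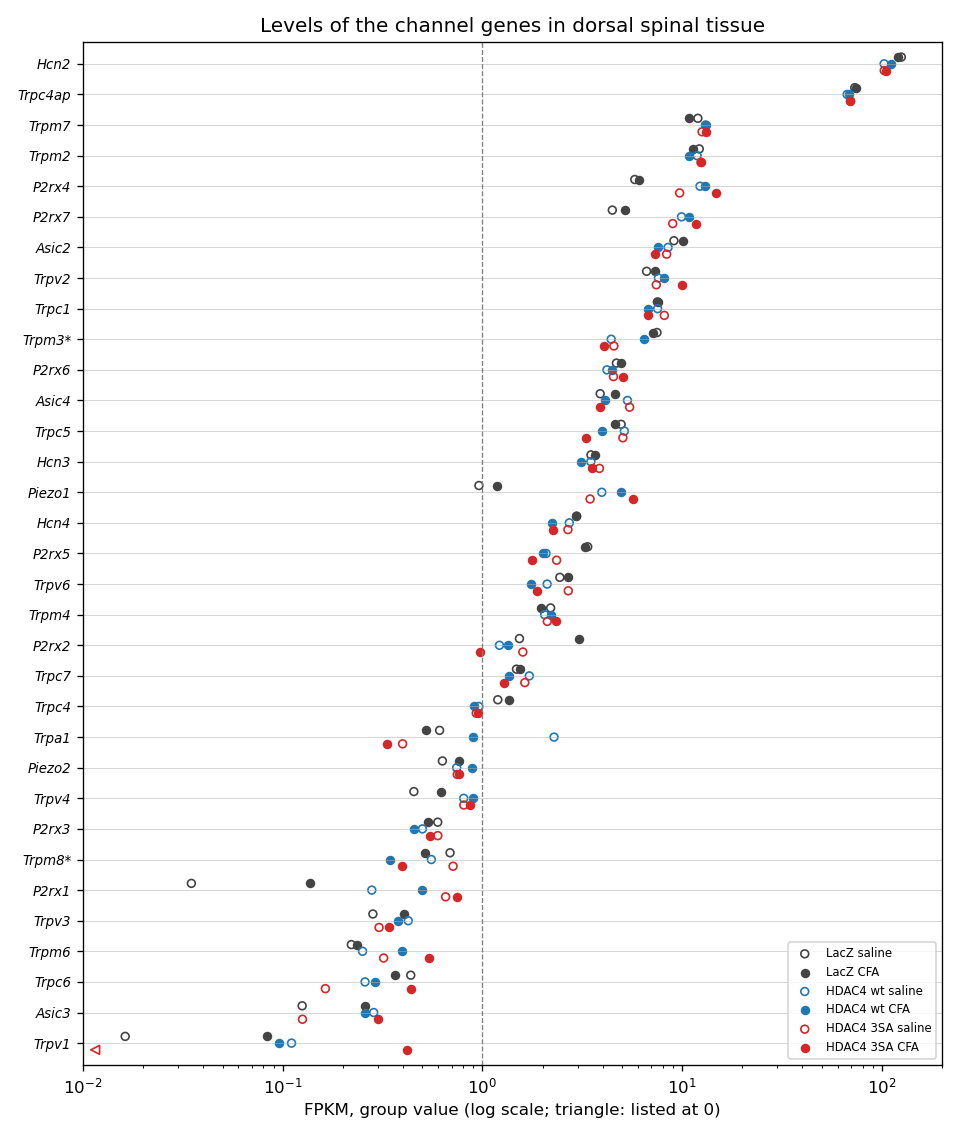
Level of 33 of the 35 genes in FPKM on a log axis, 1 point per group (open for saline, filled for CFA; grey for LacZ, blue for HDAC4 wt, red for HDAC4 3SA), ordered by the mean of the 6 values; an asterisk marks a row on the strand opposite to the gene. Hcn2 lies above 100 FPKM in all 6 groups, most channels lie between 1 and 10 FPKM, and Trpv1 lies last, with 1 value listed at 0.

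The HCN genes given here differed widely in level among themselves and little between groups. Hcn2, which encodes the HCN isoform found across much of the nervous system, had 125 and 121 FPKM (saline and CFA) with LacZ, 103 and 112 with HDAC4 wt, and 103 and 105 with HDAC4 3SA. It was the most abundant of all 34 channels, and its log2 ratios were -0.05, 0.12 and 0.03. Hcn3 had a mean of 3.52 FPKM (3.10 to 3.85). Hcn4, the isoform best known from the heart's pacemaker, had a mean of 2.63 FPKM (2.23 to 2.96) with log2 ratios of -0.01, -0.28 and -0.24. The ranges of Hcn3 and Hcn4 do not overlap, and Hcn2, Hcn3 and Hcn4 did not pass the fold threshold with any vector.

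By the mean over the 6 groups, Trpm7 and Trpm2 came next among the channels. P2rx4 was above both with HDAC4 3SA after CFA (14.7 FPKM). Trpm7, which encodes a channel fused to a kinase that passes magnesium, had 11.98 and 10.8 FPKM with LacZ, 13.1 and 13.2 with HDAC4 wt, and 12.6 and 13.1 with HDAC4 3SA. Trpm2, whose channel opens with oxidative stress and ADP-ribose, had 12.2 and 11.3, 11.9 and 10.8, and 12.4 and 12.4 FPKM in the same order. The values of these 2 genes overlap, so their order is not fixed, and all 6 of their log2 ratios lay between -0.15 and 0.06. Trpm4, a calcium-activated channel for monovalent cations, had a mean of 2.14 FPKM (1.97 to 2.34), and Trpm6, the close relative of Trpm7, had 0.327 FPKM (0.220 to 0.540).

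TRPC channels spanned 0.325 to 7.36 FPKM as means. Trpc1 had a mean of 7.36 FPKM (6.72 to 8.14), Trpc5 4.50 (3.31 to 5.13), Trpc7 1.499 (1.28 to 1.72), Trpc4 1.05 (0.904 to 1.36) and Trpc6 0.325 (0.163 to 0.441). The values of Trpc1 lay above those of Trpc5, and those of Trpc5 above Trpc7, without overlap. Trpc4ap, the gene of the TRPC4 binding protein, was far above the channels, at 67.0 to 73.8 FPKM, with log2 ratios of 0.01, 0.04 and -0.02.

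The TRPV genes were led by Trpv2, which encodes a relative of the capsaicin receptor. Trpv2 had 6.64 and 7.29 FPKM with LacZ, 7.61 and 8.11 with HDAC4 wt, and 7.42 and 10.005 with HDAC4 3SA. Trpv6, a calcium channel best known from epithelia, had a mean of 2.26 FPKM (1.74 to 2.69), but its row spans only 38.6% of the exon bases of the gene. Trpv4, whose channel responds to osmotic swelling and warmth, had 0.453 and 0.618 FPKM with LacZ, 0.805 and 0.896 with HDAC4 wt, and 0.807 and 0.869 with HDAC4 3SA. Trpv3, a warmth-gated channel of skin, had a mean of 0.356 FPKM (0.283 to 0.425), and its HDAC4 wt row lies at another place in the gene than the rows of the other vectors.

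The 3 classical sensors of heat, irritants and cold had little RNA, on rows that hold only a piece of each gene. Trpv1 had 0.0163 and 0.0837 FPKM with LacZ, 0.111 and 0.0960 with HDAC4 wt, and was listed at 0 and then at 0.421 with HDAC4 3SA. Its locus in the tables, chr11:73260630-73261162 on GRCm38, spans 14.5% of the exon bases of Trpv1. Trpa1 had 0.610 and 0.520 FPKM with LacZ, 2.28 and 0.894 with HDAC4 wt, and 0.398 and 0.331 with HDAC4 3SA. The HDAC4 wt saline value stands above the other 5, whose highest is 0.894 FPKM. The locus of Trpa1 is chr1:14904156-14918845 in the LacZ and HDAC4 wt tables (19.02% of the exon bases) but chr1:14889412-14891396 in the HDAC4 3SA table (5.47%), so its level with HDAC4 3SA refers to another piece of the gene. Trpm8 was given by a row on the opposite strand, described further on.

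P2X genes, the ATP-gated channels, ranged from 0.392 to 10.3 FPKM as means. P2rx4 had 5.79 and 6.09 FPKM with LacZ, 12.3 and 13.1 with HDAC4 wt, and 9.71 and 14.7 with HDAC4 3SA. P2rx7, whose channel needs high concentrations of ATP, had 4.47 and 5.18, 9.93 and 10.8, and 8.97 and 11.7 FPKM. Both genes had their lowest 2 values in the LacZ groups and their highest in the HDAC4 3SA CFA group. P2rx6, which encodes a subunit that acts mainly together with others, was even across groups at a mean of 4.64 FPKM (4.20 to 5.04). P2rx5 had 3.36 and 3.27 FPKM with LacZ, 2.08 and 2.01 with HDAC4 wt, and 2.35 and 1.77 with HDAC4 3SA, with the LacZ values on top. P2rx2, a partner of P2X3 in sensory neurons, had 1.53 and 3.06 FPKM with LacZ, 1.22 and 1.34 with HDAC4 wt, and 1.59 and 0.972 with HDAC4 3SA. P2rx3 had 0.597 and 0.532, 0.5004 and 0.453, and 0.598 and 0.547 FPKM, on a row that spans all of its exon bases, with log2 ratios of -0.14, -0.12 and -0.11. P2rx1 had a mean of 0.392 FPKM (0.0349 to 0.748), and its LacZ row lies at another place in the gene than the rows of the other vectors.

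Of the ASIC genes, Asic2 had 9.09 and 10.1 FPKM with LacZ, 8.496 and 7.60 with HDAC4 wt, and 8.36 and 7.28 with HDAC4 3SA. The name Asic2 is carried by 10 rows, and the one used spans 19.4% of its exon bases. Asic4, whose product is not gated by acid on its own, had 3.89 and 4.63, 5.32 and 4.12, and 5.46 and 3.89 FPKM. Asic3, the acid sensor of muscle and skin afferents, had a mean of 0.225 FPKM (0.125 to 0.301) on rows whose places differ between tables. Asic1, the main acid sensor of central neurons, has no row of its own: the loci that touch it, at chr15:99670368-99701130 on GRCm38, carry the names Gm17349 and Smarcd1. The same holds for Trpc2 (in a locus named for Xndc1 and Xntrpc) and Trpm5 (in a locus named for Cd81), and no locus touches Asic5, Trpm1 or Trpv5, so these 6 channels are not analysed here.

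The PIEZO genes encode mechanically gated channels. Piezo1 had 0.960 and 1.18 FPKM with LacZ, 3.96 and 4.93 with HDAC4 wt, and 3.46 and 5.67 with HDAC4 3SA. Piezo2, the touch channel of sensory neurons, had 0.630 and 0.761, 0.743 and 0.884, and 0.747 and 0.762 FPKM. Piezo1 was thus above Piezo2 in all 6 groups, with the wider gap in the HDAC4 groups.

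The comparison of CFA with saline asks which channels differ in inflamed mice, and it was read over the 29 genes whose mean reached 0.5 FPKM. With LacZ, 1 of the 29 genes (3.45%) passed the fold threshold, P2rx2, which was higher after CFA at a log2 ratio of 0.95. Over all 15898 names at this level, 6.75% passed it with LacZ, 4.48% upward and 2.27% downward. With HDAC4 wt, 3 of the 29 (10.3%) passed it, against 7.98% of all names (4.84% upward and 3.13% downward): Trpm3 was higher (0.53), and Trpa1 (-1.26) and Trpm8 (-0.56) were lower. The Trpm3 and Trpm8 rows lie on the strand opposite to the gene, and on the gene's own strand neither passed with HDAC4 wt (-0.017 and 0.18). With HDAC4 3SA, 5 of the 29 (17.2%) passed it, against 12.1% of all names (8.88% upward and 3.26% downward): P2rx4 (0.60) and Piezo1 (0.70) were higher, and P2rx2 (-0.66), Trpc5 (-0.59) and Trpm8 (-0.72) were lower. No gene passed it in the same direction with all 3 vectors, where 0.598% of all names did so upward and 0.0755% downward. With so few genes these shares are near those of all names, and they are given as a description of the family and not as a result about it.

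**Figure D2:**
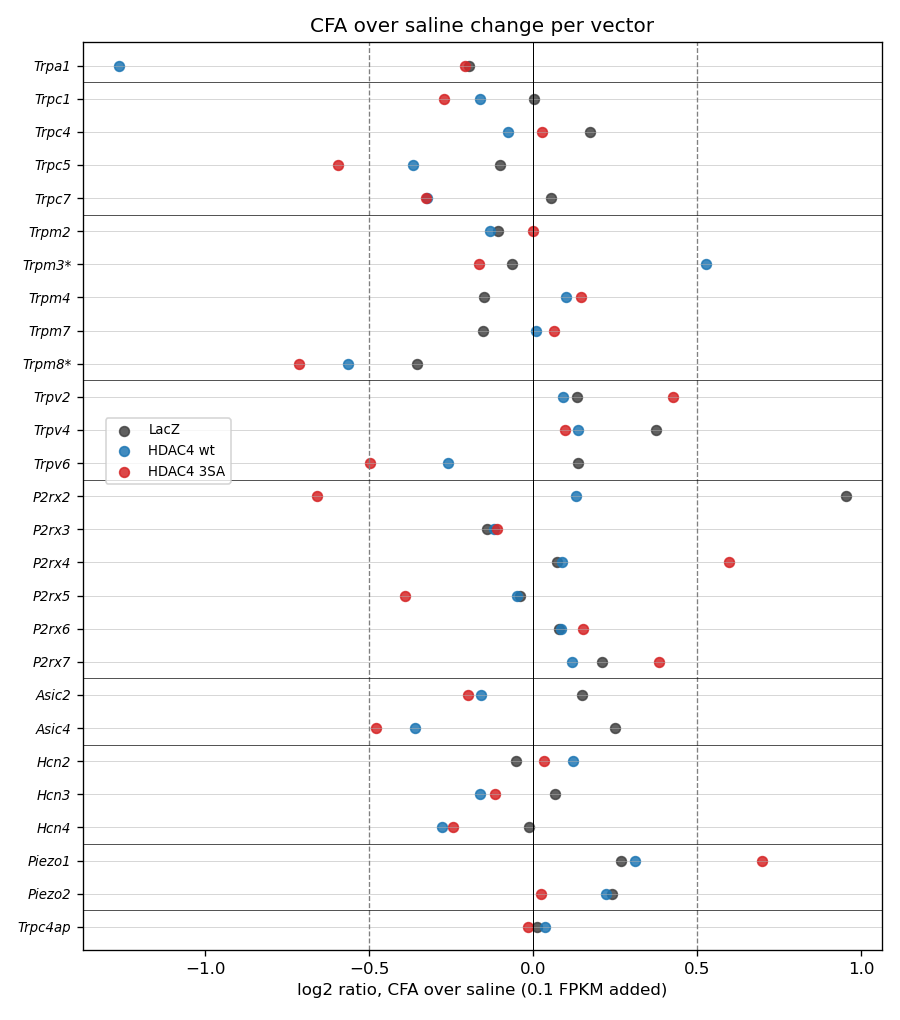
Log2 ratio of CFA over saline (0.1 FPKM added) for 27 of the 29 genes whose mean reached 0.5 FPKM, grouped by family, 1 point per vector (grey LacZ, blue HDAC4 wt, red HDAC4 3SA); dashed lines mark the fold threshold of 0.5 and an asterisk marks a row on the opposite strand. Most points lie inside the lines, P2rx2 lies past them to the right with LacZ and to the left with HDAC4 3SA, and Trpa1 with HDAC4 wt lies furthest left at -1.26.

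The median log2 ratio of the 29 genes was 0.01 with LacZ, -0.05 with HDAC4 wt and -0.12 with HDAC4 3SA, beside medians of all names of 0.01, 0.0038 and 0.01. For HDAC4 3SA this puts the middle gene of the set at the lower quartile of all names, which is also -0.12, but that median was 0.00037 with no minimum level, -0.016 with all rows of a name summed, and 0.00037 over the 11 genes whose mean reached 5 FPKM. Counted by sign, 16 of the 29 were higher and 13 lower after CFA with LacZ, 13 higher and 16 lower with HDAC4 wt, and 12 higher and 17 lower with HDAC4 3SA, where 53.0%, 51.2% and 52.9% of all names were higher. Of these 11 genes, 0 passed the threshold with LacZ, where 3.73% of the 9934 names at that level did (2.35% upward and 1.39% downward). Trpm3 alone of the 11 passed it with HDAC4 wt, where 5.25% of names did (3.28% upward and 1.97% downward), and P2rx4 alone with HDAC4 3SA, where 8.14% did (5.83% upward and 2.32% downward).

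Some genes had the same sign with all 3 vectors, whatever the size. Higher after CFA each time were P2rx4, P2rx6, P2rx7, Piezo1, Piezo2, Trpv2 and Trpv4, which makes 7 of 29, where 24.3% of all names were higher 3 times. Lower each time were 8 of 29, among them Hcn4, P2rx3, P2rx5, Trpa1, Trpc5 and Trpm8, where 19.2% of all names were lower 3 times. Of these, Trpm8 was lower 3 times only on the opposite strand (0.18 with HDAC4 wt on its own), and the HDAC4 3SA value of Trpa1 comes from another piece of the gene. The 3 comparisons share no mice.

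P2rx2 was the only one of the 29 to pass the threshold in opposite directions with different vectors. Its 2 saline values with LacZ and HDAC4 3SA were close, 1.53 and 1.59 FPKM, while its CFA values were 3.06 and 0.972 FPKM. With HDAC4 wt the pair was 1.22 and 1.34 FPKM. With 1 FPKM added, P2rx2 with HDAC4 3SA was at -0.39 and no longer past the threshold. Whether the change differed between vectors beyond the spread between mice could not be tested on group values.

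**Figure D3:**
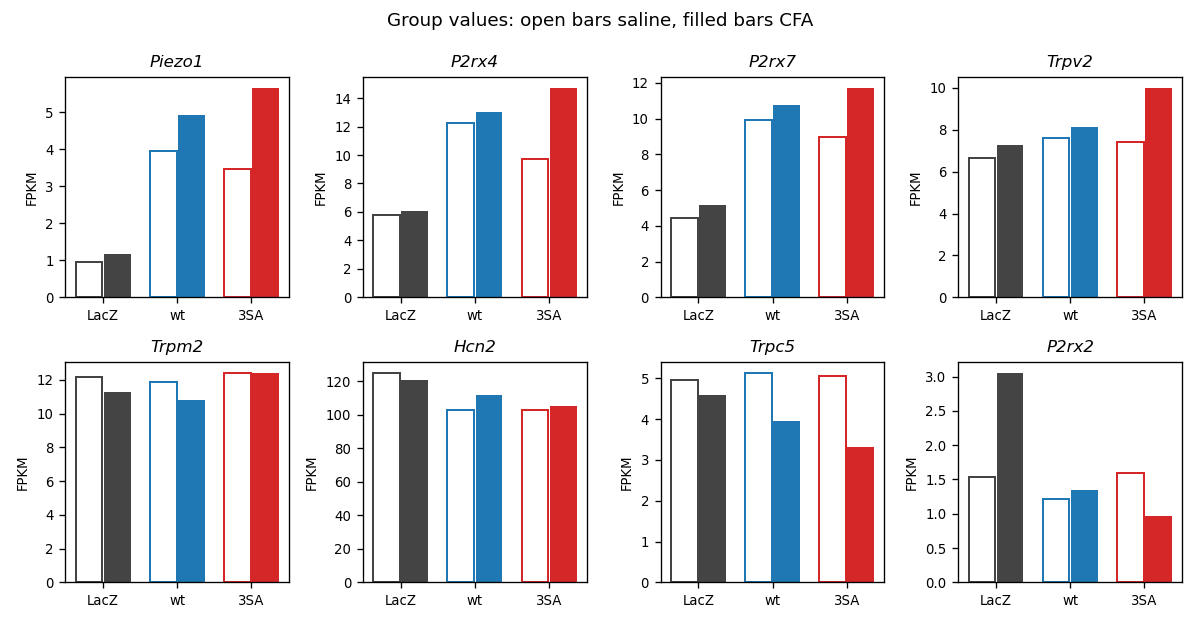
FPKM of 8 channel genes in the 6 groups, with bars from 0, open for saline and filled for CFA (grey LacZ, blue HDAC4 wt, red HDAC4 3SA), each bar 1 group value over 3 mice without an error. Piezo1, P2rx4, P2rx7 and Trpv2 have their tallest bar in the HDAC4 3SA CFA group, Trpc5 has its shortest there, and Trpm2 and Hcn2 are nearly level.

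Several TRPC and ASIC genes had lower values after CFA with both HDAC4 vectors. Trpc1 had log2 ratios of 0.0027, -0.16 and -0.27 (LacZ, HDAC4 wt and HDAC4 3SA), and Trpc7 0.05, -0.32 and -0.33. Trpc4 differed from these, with 0.17, -0.08 and 0.03. Trpc5, whose channel is found in neurons and is sensitive to cold, had 4.95 and 4.5995 FPKM with LacZ, 5.13 and 3.96 with HDAC4 wt, and 5.05 and 3.31 with HDAC4 3SA. Its 3 saline values were thus close to each other, and its CFA values were spread. With both rows of Trpc5 summed the log2 ratio was -0.09 with HDAC4 wt and -0.495 with HDAC4 3SA, and with 1 FPKM added it was -0.489 with HDAC4 3SA, so that the call was lost in both cases. Asic2 and Asic4 were both higher after CFA with LacZ (0.15 and 0.25), and both lower with HDAC4 wt (-0.16 and -0.36) and with HDAC4 3SA (-0.20 and -0.48). None of these ASIC ratios passed the fold threshold, and with all 10 rows of Asic2 summed its log2 ratio with HDAC4 3SA was 0.15, so that its sign there depends on the row used.

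Trpv6 had a like pattern, with log2 ratios of 0.14, -0.26 and -0.50, the last just inside the threshold at -0.4975. With all rows of Trpv6 summed it was past the threshold with both HDAC4 vectors (-0.57 and -0.54), and with 0.01 FPKM added it was past it with HDAC4 3SA (-0.52). Nearest outside the threshold were Trpm3 with HDAC4 wt (0.527) and Trpm8 with HDAC4 wt (-0.565). Trpv2 was higher after CFA with each vector, by 0.13, 0.09 and 0.43, and P2rx7 by 0.21, 0.12 and 0.38.

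Lists of marker genes of cell types move with some of these values. The 6 neuronal markers had median log2 ratios of 0.02, -0.12 and -0.24 (LacZ, HDAC4 wt and HDAC4 3SA). The 10 markers of dorsal horn neurons had 0.20, -0.21 and -0.33. Of these 10, 7 were higher with LacZ, and 7 and 9 were lower with HDAC4 wt and HDAC4 3SA. The Asic2 row used, Asic4, Trpv6, Hcn3, Trpc1 and Trpc7 had the signs of these medians with all vectors. Hcn4 and Trpc5, among others, had them with HDAC4 wt and HDAC4 3SA. Other channels did not, among them Hcn2, opposite with each vector (-0.05, 0.12 and 0.03), and Trpc4 with HDAC4 3SA (0.03). Snap25, the most abundant neuronal marker, had 1227 and 1135 FPKM with LacZ, 795 and 719 with HDAC4 wt, and 861 and 646 with HDAC4 3SA. Of the 6, 4 were lower and 2 (Nefl and Stmn2) higher after CFA with each HDAC4 vector, Nefl by 0.39 with HDAC4 wt and 0.14 with HDAC4 3SA. In whole tissue, fewer cells of a type and less RNA per cell cannot be told apart, and the part of the neuronal markers in the channel values was not tested.

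Piezo1, P2rx4 and P2rx7 stood out by their level across vectors. In saline groups, Piezo1 was 4.12 times as high with HDAC4 wt and 3.60 times as high with HDAC4 3SA as with LacZ, P2rx4 2.12 and 1.68 times, and P2rx7 2.22 and 2.01 times. In CFA groups the ratios over LacZ were 4.19 and 4.82 for Piezo1, 2.14 and 2.42 for P2rx4, and 2.08 and 2.26 for P2rx7. The 3 genes were therefore above LacZ in every one of the 4 HDAC4 groups. Trpv4 was 1.78 times as high as with LacZ in both saline groups, at under 1 FPKM.

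In the other direction, P2rx2 after CFA was at 0.438 (HDAC4 wt) and 0.318 (HDAC4 3SA) of its LacZ level, while P2rx5 was at 0.619 and 0.699 of it in saline groups. Taking a log2 ratio beyond 0.5 over LacZ, 4 of the 28 genes whose rows could be compared were higher in saline groups with HDAC4 wt and 4 with HDAC4 3SA, where 15.7% and 12.6% of 15714 names were. After CFA 3 and 3 of the 28 were higher, where 15.8% and 16.8% of names were. Lower were 2, 1, 4 and 3 of the 28 (HDAC4 wt saline, HDAC4 3SA saline, HDAC4 wt CFA and HDAC4 3SA CFA), where 5.41%, 3.88%, 5.33% and 6.85% of names were. Higher levels over LacZ were thus about as common in the set as among all names. The vector cannot be told apart from the run in which its table was normalized, and the median over all names was shifted by 0.04 to 0.07 on the log2 scale.

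The 10 markers of microglia were higher in the HDAC4 groups too. Their summed level was 175 FPKM (saline) and 206 FPKM (CFA) with LacZ, 990 and 1262 with HDAC4 wt, and 747 and 1392 with HDAC4 3SA. All 10 were measured, and all 10 were higher after CFA with each vector, by medians of 0.27, 0.34 and 0.79, with 1, 1 and 9 of them past the fold threshold. Cx3cr1, the fractalkine receptor of microglia, had 9.12 and 9.84 FPKM with LacZ, 33.3 and 37.6 with HDAC4 wt, and 26.3 and 42.1 with HDAC4 3SA. C1qa, the most abundant of them, had 37.5 and 49.9, 360 and 486, and 254 and 500.0 FPKM. Piezo1, P2rx4 and P2rx7 each put the 6 groups in the same order as the summed markers did, from LacZ saline through LacZ CFA, HDAC4 3SA saline, HDAC4 wt saline and HDAC4 wt CFA to HDAC4 3SA CFA. Of the 6 astrocyte markers, Gfap, Aqp4 and Aldh1l1 were also higher in the HDAC4 groups than with LacZ. The other astrocyte markers, Slc1a3, Slc1a2 and S100b, were lower there. The part of microglial or astrocyte markers in Piezo1, P2rx4 and P2rx7 was not tested.

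**Figure D4:**
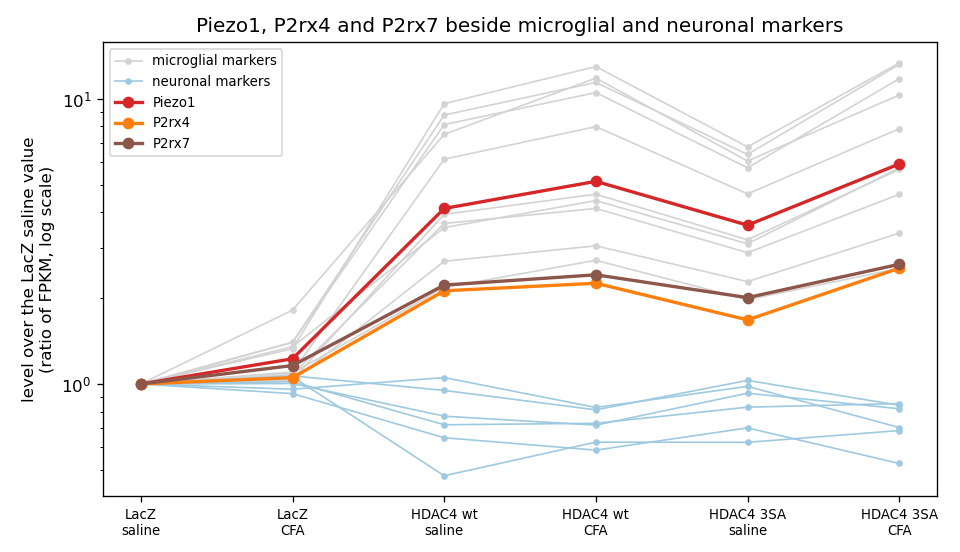
Level of Piezo1, P2rx4 and P2rx7 in each group as a ratio to its own LacZ saline value (log axis), beside 10 microglial markers (grey) and 6 neuronal markers (light blue), with values of different vectors taken from tables normalized apart. The 3 channel genes and the microglial markers lie above their LacZ saline value in all 4 HDAC4 groups, and the neuronal markers lie near or below 1.

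P2rx7 and P2rx4 are neighbours, with 15039 bases between their loci on chromosome 5. Because these 2 genes and Piezo1 share a pattern across groups, the 250 bases before their RefSeq start sites are shown (RefSeq, GRCm38.p6): P2rx4 at chr5:122707294-122707543 on the plus strand, P2rx7 at chr5:122643677-122643926 on the plus strand and Piezo1 at chr8:122551330-122551579 on the minus strand. Capitals mark GC boxes (GGGCGG, or CCGCCC on the other strand) and TATA boxes (TATAAA, or TTTATA on the other strand).
P2rx4: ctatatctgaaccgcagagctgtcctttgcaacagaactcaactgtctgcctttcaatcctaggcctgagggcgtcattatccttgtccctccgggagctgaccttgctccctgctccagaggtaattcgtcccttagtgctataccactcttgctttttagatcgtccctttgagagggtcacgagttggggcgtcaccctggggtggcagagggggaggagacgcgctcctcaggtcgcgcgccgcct
P2rx7: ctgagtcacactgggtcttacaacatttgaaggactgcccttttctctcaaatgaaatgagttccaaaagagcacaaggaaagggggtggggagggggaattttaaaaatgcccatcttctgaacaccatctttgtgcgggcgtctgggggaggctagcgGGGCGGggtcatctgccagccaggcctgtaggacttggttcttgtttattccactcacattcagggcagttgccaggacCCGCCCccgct
Piezo1: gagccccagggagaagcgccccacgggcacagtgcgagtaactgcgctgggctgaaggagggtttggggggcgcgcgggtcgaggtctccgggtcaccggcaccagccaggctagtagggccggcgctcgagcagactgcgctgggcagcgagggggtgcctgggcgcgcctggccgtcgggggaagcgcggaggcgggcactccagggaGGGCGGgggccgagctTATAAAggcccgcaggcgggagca

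The Piezo1 window is rich in G and C (74%), beside 57.2% for P2rx4 and 53.6% for P2rx7, where the median of all 32851 windows of this length was 52.4%. P2rx7 holds 2 GC boxes, Piezo1 holds 1 GC box and 1 TATA box, and P2rx4 holds neither. A GC box occurs in 32.7% and a TATA box in 12.4% of all windows. The core of the motif bound by PU.1, a transcription factor of microglia (GAGGAA, or TTCCTC on the other strand), occurs in 23.3% of all windows and in none of these 3, which says only that these letters are not there. The motifs do not overlap one another in these windows, and none of them is shown here to be bound.

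For 2 genes, Trpm3 and Trpm8, the row chosen by its mean level lies on the strand opposite to the annotated gene, so that its values need not be those of the channel. Trpm3 encodes a heat and steroid sensitive channel. Its chosen row had 7.48 and 7.15 FPKM with LacZ, 4.41 and 6.40 with HDAC4 wt, and 4.55 and 4.05 with HDAC4 3SA, at log2 ratios of -0.06, 0.53 and -0.16. The row on the strand of Trpm3, at the same place (chr19:22438424-22995492), had 2.66 and 5.22, 3.53 and 3.48, and 2.35 and 3.46 FPKM, at log2 ratios of 0.95, -0.02 and 0.54. The call for Trpm3 with HDAC4 wt therefore belongs to the opposite strand, and on the strand of the gene Trpm3 passed the threshold with LacZ and with HDAC4 3SA instead.

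The chosen row of Trpm8 (chr1:88319084-88322563) had 0.688 and 0.517 FPKM with LacZ, 0.555 and 0.343 with HDAC4 wt, and 0.713 and 0.395 with HDAC4 3SA, and its locus holds 1.63% of the exon bases of the gene. The highest row on the strand of Trpm8 had a mean of 0.404 FPKM and log2 ratios of -0.32, 0.18 and -0.40. On that strand Trpm8 did not pass the threshold with any vector, and it fell below the level of 0.5 FPKM. Trpc5 also had rows on both strands of one place, with means of 4.50 FPKM on its own strand and 2.79 FPKM on the other. The strand of a row was read from its place in the order of the tables, which gave the annotated strand for 98.5% of 13227 names with a single row. The libraries were strand-specific by the study's methods, while the strand setting used in counting is not given in the sources used here.

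**Figure D5:**
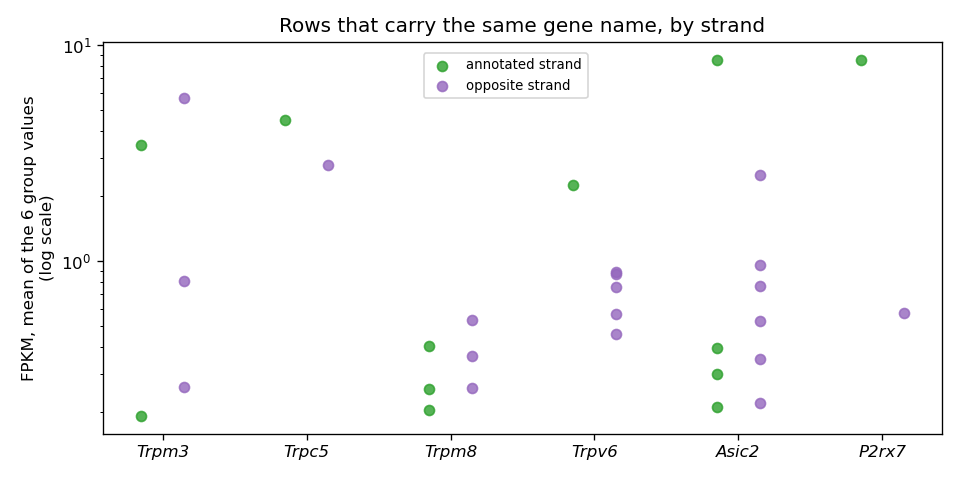
Mean FPKM over the 6 groups (log axis) of each row that carries the name of 1 of 6 genes, green on the annotated strand and purple on the opposite strand. For Trpm3 and Trpm8 the highest row is purple (5.67 and 0.535 FPKM), and for Trpc5, Trpv6, Asic2 and P2rx7 it is green.

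The low levels of Trpv1, Trpa1, Trpm8, P2rx3 and Asic3 can be set beside markers of dorsal root ganglion neurons. Of 10 such markers, 5 have a row of their own, and Scn10a, Scn11a, Mrgprd, Mrgpra3 and Prdm12 do not. The 5 with a row (Avil, Prph, Isl1, Sncg and Th) had a summed level of 89.8 and 113 FPKM with LacZ, 79.7 and 120 with HDAC4 wt, and 108 and 176 with HDAC4 3SA. Most of that sum is Sncg (mean 78.5 FPKM) and Prph (mean 22.8 FPKM), which other neurons also express, and the Avil row lies on the opposite strand. After CFA the 5 had medians of 0.30, 0.42 and 0.60, and the 4 markers of motor neurons, which also use Prph, had 0.39, 1.11 and 1.27, so motor neuron markers were higher after CFA with each vector while P2rx3 was lower (-0.14, -0.12 and -0.11). The part of dissection in any channel value was not tested.

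The remaining marker lists were read in the same way, and their changes in RNA do not give the makeup of the tissue. Median log2 ratios (LacZ, HDAC4 wt and HDAC4 3SA) were -0.04, 0.17 and 0.11 for astrocytes, 0.02, 0.19 and 0.11 for oligodendrocytes, 0.09, 0.16 and 0.25 for endothelial cells, -0.95, -0.05 and 0.15 for ependymal cells, and 0.46, 0.22 and 0.13 for leptomeningeal fibroblasts. They were 0.63, -0.04 and -0.63 for Schwann cells, 1.13, -1.57 and -0.41 for skeletal muscle, and 3.16, -0.93 and -0.89 for neutrophils. These 3 medians were thus above 0 with LacZ and below 0 with both HDAC4 vectors, although single markers went the other way (among them Pmp22 of Schwann cells with HDAC4 wt at 0.06, and Tnni2 of muscle with HDAC4 wt and HDAC4 3SA at 0.09 and 0.15). The signs of the medians are also those of Asic4, Trpv6, Hcn3, Trpc1, Trpc7 and the Asic2 row used. With its rows summed, Asic2 does not have them. The medians of the neuronal and dorsal horn neuron markers have these signs too, so the pattern is not particular to these lists. Whether these go together was not tested. In the marker lists, Ptprc, Vwf and Mnx1 passed the fold threshold upward with all 3 vectors.

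Genes that work with these channels were read from 7 lists of 73 genes, of which 62 have a row and 57 reach 0.5 FPKM. With LacZ 3 passed the threshold upward and 1 downward, with HDAC4 wt 3 and 0, and with HDAC4 3SA 6 and 0. Over all names the shares were 4.48% upward and 2.27% downward with LacZ, 4.84% and 3.13% with HDAC4 wt, and 8.88% and 3.26% with HDAC4 3SA, so that these counts are read as a description only. Their median log2 ratios were 0.03, 0.06 and -0.0040. Ptgs2, which encodes the cyclooxygenase whose prostaglandin products sensitise TRPV1, was the one gene of the 57 to pass it with all 3 vectors. Its values were 0.456 and 0.774 FPKM with LacZ, 0.747 and 1.33 with HDAC4 wt, and 0.673 and 1.49 with HDAC4 3SA, at log2 ratios of 0.65, 0.75 and 1.04. Ptgs2 was thus higher after CFA in each vector. Trpv1 lay under 0.5 FPKM in each group, on a row that spans 14.5% of its exon bases. Its log2 ratios at that low level were 0.66, -0.10 and 2.38.

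Among the receptors and enzymes that share ATP with the P2X channels, P2ry6, a receptor for UDP found on microglia, had 0.952 and 1.51 FPKM with LacZ, 6.72 and 7.80 with HDAC4 wt, and 4.68 and 8.16 with HDAC4 3SA. It passed the threshold with LacZ (0.61) and HDAC4 3SA (0.79). P2ry12, the ADP receptor of microglia, had 11.1 and 9.30, 13.9 and 14.5, and 13.6 and 14.3 FPKM and passed it with none. Both genes, like Piezo1, had their LacZ values below all 4 HDAC4 values, with the wider gap for P2ry6. Entpd1, which degrades ATP, was past the threshold upward with LacZ (0.53), and P2ry14, a receptor for UDP sugars, with HDAC4 3SA (0.68).

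Of the remaining genes past the threshold, Stoml3, a stomatin-like protein of touch neurons, was lower with LacZ (-0.70), and Panx2, read on the opposite strand, was higher with HDAC4 wt (0.56). Scnn1a, a sodium channel subunit related to the ASICs, was higher with HDAC4 wt (0.60) and HDAC4 3SA (0.57), and Stom (0.51) and the prostaglandin receptor gene Ptger1 (0.52) were higher with HDAC4 3SA. The most abundant gene of each list was steady. Pick1, an ASIC binding protein, had a mean of 29.5 FPKM, Enpp2 130, Pex5l, the HCN auxiliary subunit, 58.7, Stim1 28.3, Prkce 25.7, Tmem63b 39.9 and the adenosine receptor gene Adora1 45.3. Their log2 ratios lay within the fold threshold with all 3 vectors, the furthest from 0 being Prkce with HDAC4 3SA at -0.31.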

How the data were processed

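RNA of dorsal spinal cord tissue was sequenced for 18 mice in 6 groups, assigned from the labels. The authors mapped reads with TopHat and Bowtie to GRCm38 and used Cufflinks and Cuffdiff, as their processing notes name them; the FPKM values deposited by the authors are 1 estimate per group over 3 mice, in 1 table of 34579 loci per vector. The tables also hold the authors' fold changes, test statistics, p-values and q-values, which were not used. Depth per library is not given in the tables, so no interval was computed. The planned route for group values, without a test, was taken.

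Rows were matched by locus identifier. Of several rows of a name, that with the highest mean over the 6 groups was kept. Log2 ratios used 0.1 FPKM added, a minimum mean of 0.5 FPKM and a threshold of 0.5. The calculation was tested on simulated data. Places were compared with GENCODE M21, and promoter windows came from RefSeq, with 25 of 35 genes matched. Genes named are those at 1 FPKM or more, those past the threshold with at least 2 vectors, a fixed set of nociception channels, and from the 7 related and 13 marker lists the most abundant gene and those past the threshold with all vectors; other genes of the lists were named after their values were seen. A few genes covered by the rule are not reported here. The genes and lists were chosen with earlier results of these data known. Alternatives changed the FPKM added, the minimum level, the fold threshold, the row used and the centring. Restriction to annotated strands and leaving out Trpc4ap or Trpa1 were chosen after seeing the data. Python 3.11.15, numpy 2.4.6 and pandas 2.3.3 were used.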

Additional observations from a re-analysis of the deposited data

How the results depend on the processing

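Of the counts and medians over genes of the set, with counts at 1 FPKM or more among them, 59 values under the alternatives stayed within tolerance and 13 moved. The tolerance was a ratio of 1.5 between counts and a difference of 0.1 between medians. With rows summed, HDAC4 wt had 2 genes past the threshold (Trpa1 and Trpv6), which was within it. The 1, 3 and 5 genes past the threshold (LacZ, HDAC4 wt and HDAC4 3SA) became 1 for HDAC4 wt and 2 for HDAC4 3SA with 1 FPKM added, 4 for LacZ and 9 for HDAC4 3SA with no minimum level, and 1 for HDAC4 wt with a minimum mean of 1 FPKM. With a threshold of 0.3 they were 3, 7 and 12 of 29, where 13.8%, 17.4% and 25% of all names passed, and 1 gene, Trpm8, then passed downward with all 3 vectors, as 0.34% of names did, but on its opposite-strand row only (0.18 with HDAC4 wt on its own strand). With rows on the annotated strand only, a restriction added after seeing the data, they were 2 for LacZ and 1 for HDAC4 wt. The HDAC4 3SA median of -0.12 was 0.00037 with no minimum level and -0.016 with all rows of a name summed. Among values past the threshold the direction turned for 2, both with HDAC4 wt on the annotated strand: Trpm3 (-0.017 in place of 0.53) and Trpm8 (0.18 in place of -0.56). Among values inside it, the choice of rows also turned Asic2 with HDAC4 3SA (0.15 in place of -0.20 with rows summed) and Trpm3 with LacZ (0.29 summed and 0.95 on the annotated strand, in place of -0.06) and HDAC4 3SA (0.16 and 0.54, in place of -0.16). For 31 named genes, 424 single values held and 39 moved. The alternatives that summed rows or used other strands differ by construction in the rows read; other causes were not tested.

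No paired analysis was possible because the tables carry 1 value per group and no column per mouse. Leaving out single mice was not run for the same reason. The depth of each library is unknown, since the study's methods give only a minimum, and rows that span a small share of a gene (Trpv1, Trpa1, Trpm8, Asic2, P2rx1, Trpv6, Asic3 and Trpm6) limit what their levels say of the channel.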
